A study of Homo sapiens with 36 samples.

Results

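Lysosome and autophagy genes were followed across 2 human melanoma cell lines, 501mel and IGR37, whose stearoyl-CoA desaturase (SCD) was inhibited or lowered by siRNA. The set held 40 genes, found by symbol, and all 40 had a row in both deposited tables, out of 13364 genes in the first table and 13066 in the second. By role they were 2 transcription factors, 4 lysosomal membrane proteins, 10 hydrolases, 7 subunits of the proton pump and 17 autophagy genes. The autophagy genes comprised 3 receptors, 4 ATG8 proteins, 6 genes of the initiation and phosphoinositide steps and 4 genes of conjugation. SCD makes monounsaturated fatty acids out of saturated ones, and the question asked of these genes was how they move when that step is lost.

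Transcript 3′ ends were counted with QuantSeq Forward libraries in 36 samples, 3 in each of 12 groups, 6 per line, all collected at 48 h. In the first table were cells given the inhibitor A939372 at 1 uM (SCDi) with their DMSO controls, and cells given the second SCD siRNA (siSCD_2) with the control siRNA named siCTR. The second table held the other SCD siRNA (siSCD_1) and its control siCTR_1, every siRNA being used at 20 nM. All groups were grown in RPMI-1640 with serum, and each line stood for 1 tumour. The labels do not say that the 3 libraries of a group came from separate cultures, so the spread behind each p-value is that of these libraries and may be technical. The tables had been normalised separately, so every change given here is treated minus control within 1 table.

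The lysosome is the acidic compartment in which hydrolases break down proteins, glycans and lipids. Its acidity is kept by the V-ATPase, a proton pump with a membrane sector (V0) and a cytosolic sector (V1) that hydrolyses ATP. In autophagy a membrane grows around cytoplasm, ATG8 proteins are joined to its lipid by a ubiquitin-like conjugation system, receptors such as SQSTM1 bind cargo to ATG8 proteins, and the closed vesicle fuses with lysosomes. Many of these genes are known targets of TFEB and TFE3, relatives of the melanocyte regulator MITF that bind the E-box CACGTG, and melanosomes themselves are relatives of the lysosome.

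Levels are log2 CPM, counts scaled to the size of the library, and gene reads recovered from them ranged from 4078450 to 6685898 per library in the first table and were 2402788 to 7483010 in the other. The limit set by 0 reads, counting error only, was 0.416 to 0.720 CPM among the 24 libraries of the first table and, among the 12 of the other, 0.388 to 1.19 CPM. SCD mRNA was lower in every SCD siRNA library than in any of its controls, for example 6.52, 5.32 and 6.09 log2 CPM with siSCD_2 in IGR37, against 10.16, 10.16 and 10.05 with siCTR. The inhibitor acts on the enzyme, so this transcript does not check exposure to it. All 8 melanocyte lineage markers were measured, with sums of 3635 to 7126 CPM (first table) and 3039 to 7109 CPM (second table). None of the 7 leukocyte markers, from cells rich in lysosomes, had a row in either table, while fibroblast markers summed to 21.2 CPM at most and epithelial markers to 10.8 CPM at most. CD68, a lysosomal membrane gene also used to mark macrophages, was not among the 7 and was measured. Its changes are given with the wider list. Spike-in RNA took 2.43% to 7.21% of reads, and its share was mostly higher with SCD siRNA: 5.16% to 6.96% with siSCD_2 against 3.81% to 5.08% with siCTR in 501mel, and 5.05% to 7.21% against 4.35% to 4.83% in IGR37. With siSCD_1 the share was 5.13% to 5.71% against 3.76% to 4.29% with siCTR_1 in 501mel, and 4.58% to 5.50% against 4.0% to 4.75% in IGR37, where the ranges overlap. With SCDi it was 2.43% to 3.61% against 3.57% to 4.37% with DMSO in 501mel, and 4.30% to 4.83% against 3.76% to 4.59% in IGR37. Fewer cells and less RNA per cell cannot be told apart in such bulk libraries, and the part of the spike-in share in the changes below was not tested.

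Promoter windows from RefSeq (build GRCh38.p14, 250 bases before to 50 after the start site) were found for 31 of the 40 genes. UVRAG, LAMP2, CTSB, ATP6V1C1, ATP6V0E1, ATP6V1A, ATP6V1H, ATP6V1B2 and HEXA had no window in the table. The E-box CACGTG, its own reverse complement and therefore read on both strands at once, was in 9 of the 31 windows (29%), against 2030 of 27305 windows of the same length over all genes (7.43%). These windows over all genes, here and for the motifs below, include genes that were not measured. Among measured genes of the first table with a window, 1031 had the E-box and 8926 did not. These 9 were ATG3, ATP6V0D1, CD63, CTSA, CTSD, GAA, LAMP1, MCOLN1 and NEU1, which is 4 of 8 hydrolases with a window, 1 of 2 pump subunits and 1 of 16 autophagy genes. The longer palindrome GTCACGTGAC, which contains the E-box and is a form of the element shared by many lysosomal genes, was in 2 of 31 windows (GAA and MCOLN1), against 104 of 27305 (0.381%). The windows of the following 5 genes are printed because they hold the E-box and because they stand out below: NEU1 and ATP6V0D1 among the falls, LAMP1 for its opposite changes in IGR37, GAA in 501mel with siSCD_2, and CTSD between the lines. Each is given 5′ to 3′ on the strand of the gene, with capitals for the E-box, or for the longer palindrome in GAA.
LAMP1 (chr13:113296989-113297288, plus strand): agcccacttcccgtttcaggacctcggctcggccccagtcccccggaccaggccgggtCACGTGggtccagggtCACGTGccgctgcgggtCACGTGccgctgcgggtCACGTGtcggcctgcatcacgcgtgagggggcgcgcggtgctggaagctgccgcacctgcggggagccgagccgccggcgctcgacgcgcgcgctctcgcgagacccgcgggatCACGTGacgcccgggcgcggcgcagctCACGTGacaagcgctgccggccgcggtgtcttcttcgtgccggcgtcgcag
CTSD (chr11:1763878-1764177, minus strand): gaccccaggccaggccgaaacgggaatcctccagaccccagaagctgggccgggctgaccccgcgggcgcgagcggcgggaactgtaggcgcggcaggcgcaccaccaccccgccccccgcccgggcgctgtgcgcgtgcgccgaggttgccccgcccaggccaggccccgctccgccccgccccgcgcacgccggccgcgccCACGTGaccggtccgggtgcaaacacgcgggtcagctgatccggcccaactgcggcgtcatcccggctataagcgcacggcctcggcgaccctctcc
NEU1 (chr6:31862772-31863071, minus strand): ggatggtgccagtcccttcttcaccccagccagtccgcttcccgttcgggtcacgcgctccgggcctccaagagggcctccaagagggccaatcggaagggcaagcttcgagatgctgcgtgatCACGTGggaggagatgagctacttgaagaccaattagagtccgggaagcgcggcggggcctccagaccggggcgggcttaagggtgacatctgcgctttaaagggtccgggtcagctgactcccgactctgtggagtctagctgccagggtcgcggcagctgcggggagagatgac
GAA (chr17:80101331-80101630, plus strand): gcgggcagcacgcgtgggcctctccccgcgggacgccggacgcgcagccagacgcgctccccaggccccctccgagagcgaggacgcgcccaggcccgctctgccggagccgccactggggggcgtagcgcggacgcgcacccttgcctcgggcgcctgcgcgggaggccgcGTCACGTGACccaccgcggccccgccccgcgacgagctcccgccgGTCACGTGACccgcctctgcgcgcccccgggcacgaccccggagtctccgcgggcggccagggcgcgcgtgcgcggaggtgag
ATP6V0D1 (chr16:67481108-67481407, minus strand): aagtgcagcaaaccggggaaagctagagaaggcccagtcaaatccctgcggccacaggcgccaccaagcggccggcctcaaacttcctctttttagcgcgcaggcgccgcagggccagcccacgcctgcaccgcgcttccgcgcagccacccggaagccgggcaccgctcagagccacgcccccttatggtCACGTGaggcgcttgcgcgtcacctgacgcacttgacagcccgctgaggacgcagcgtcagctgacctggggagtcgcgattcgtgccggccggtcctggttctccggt

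The LAMP1 window held 6 E-boxes, 4 of them spaced closely between 192 and 142 bases before the start site, GAA held 2 copies of the palindrome, and NEU1, CTSD and ATP6V0D1 held 1 E-box each. A further motif, TGACNNNGC on either strand, as in the antioxidant element of NRF2 targets, was in 8 of 31 windows (25.8%), against 13.6% of all windows. The word TGATGNAA on either strand, as in the composite element bound by ATF4, was in 0 of 31, against 3.67% of all windows. A match is a description of letters and not of binding.

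Across the 6 treated against control comparisons, 38 of the 40 genes changed at least once, against 83.7% of the 12896 genes in both tables. The other 2 changed in none (the lysosomal calcium channel MCOLN1 and ATG7, the activating enzyme of conjugation). Of the 38, 15 were only higher, 7 only lower and 16 moved in both directions, depending on the line and the agent, against 31.6%, 32.5% and 19.6% of all genes in both tables. TFE3, LAMP2 and the receptor NBR1 rose in 5 of the 6 comparisons, and 8 of the 40 genes rose in 4 or more. How many of all genes rose that often was not counted. In single comparisons 16.7% to 23.2% of all genes rose, and 0.232% in 501mel with SCDi. A gene was called when the limma adjusted p over all genes of its table was under 0.05, and changes are log2 differences ± SE.

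**Figure D1:**
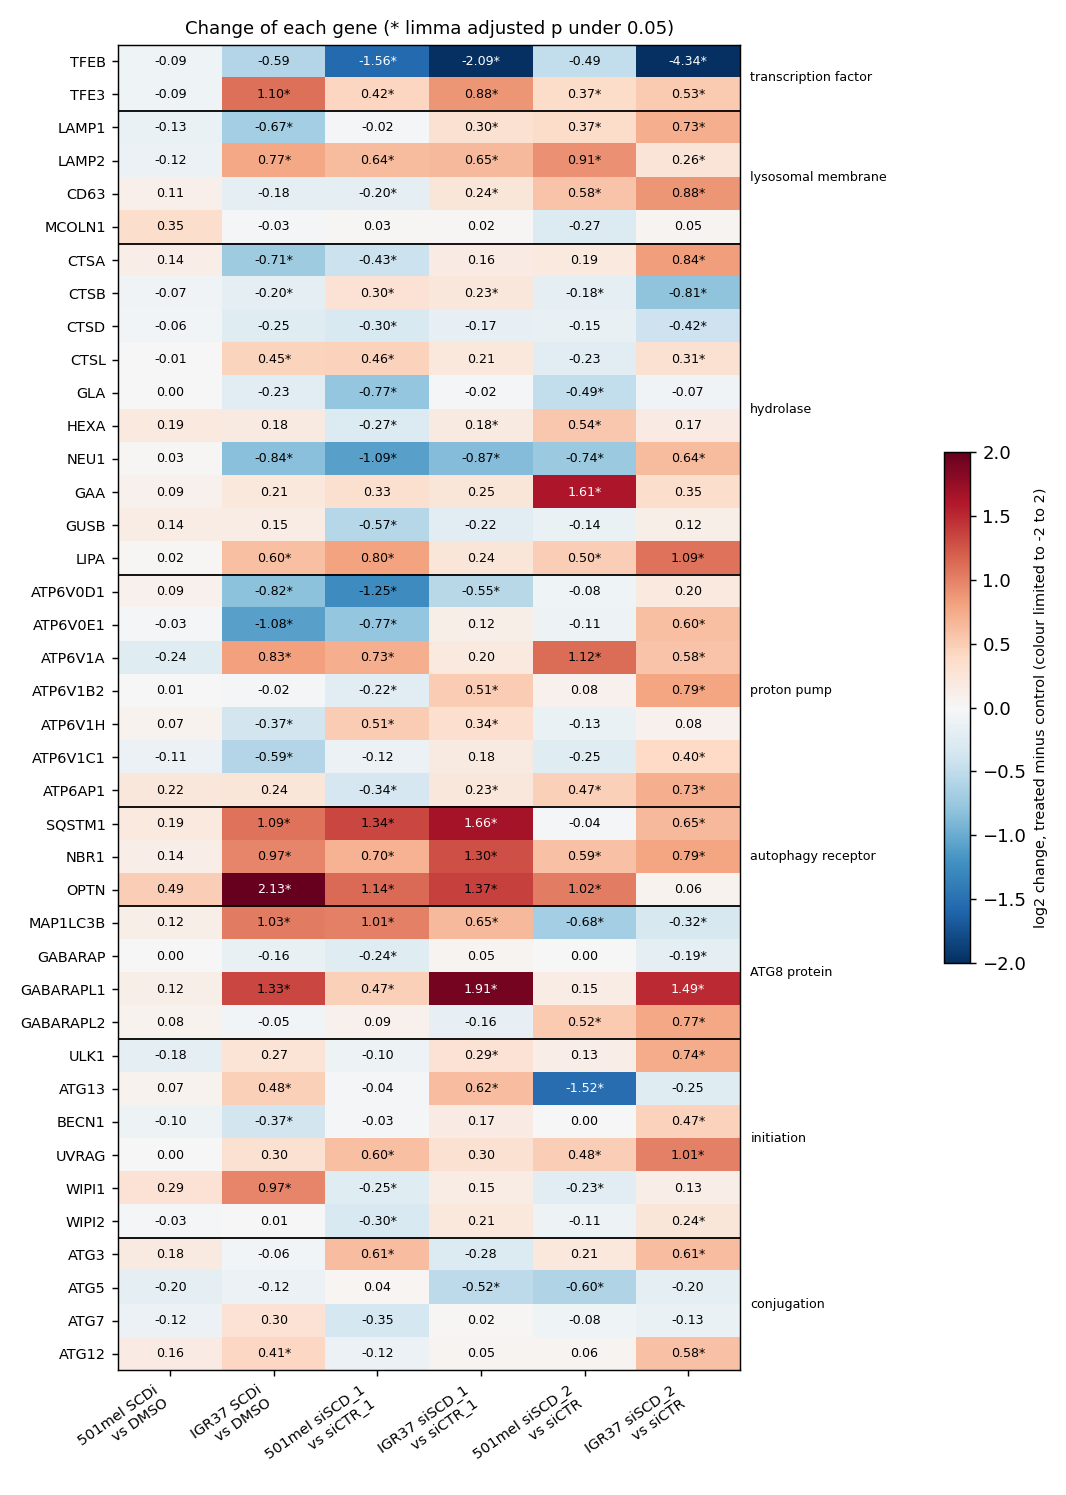
Log2 change, treated minus control, of the 40 genes (rows, by role) in the 6 comparisons (columns), with a star at a limma adjusted p under 0.05 and n = 3 libraries per group. The column of 501mel with SCDi holds no star, while OPTN reached 2.13 and ATP6V0E1 -1.08 in IGR37 with SCDi, and NEU1 was blue and starred in 4 columns and red and starred in IGR37 with siSCD_2.

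In 501mel the inhibitor moved none of the 40 genes past the threshold, where 0.292% of all genes were called (0.232% higher and 0.0599% lower). Before adjustment 5 genes had a p below 0.05, of which 4 were higher (HEXA, ATP6AP1, OPTN and WIPI1) and 1 was lower (ATP6V1A), and limma voom on the recovered reads also called 0. The largest difference was in OPTN, with 3.31, 3.50 and 3.37 log2 CPM under SCDi, against 3.29, 2.69 and 2.74 under DMSO. These 2 groups did not overlap, but the gap of 0.49 ± 0.18 had a limma adjusted p of 0.311. All 40 changes lay between -0.24 and 0.49, with a median of 0.03.

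In IGR37 the same inhibitor divided the set. The 3 autophagy receptors and 2 of 4 ATG8 genes rose, led by OPTN (4.37-fold) and GABARAPL1 (2.52-fold), together with TFE3 and LAMP2, while membrane sector subunits of the pump, NEU1, CTSA and LAMP1 fell. In all 13 genes rose and 9 fell (55.0% of 40), against 44.1% of all genes, of which 20.9% rose and 23.1% fell. MITF, the lineage regulator, was 8.19, 8.11 and 8.26 log2 CPM under SCDi, against 9.02, 9.12 and 9.16 under DMSO, and melanocyte markers summed to 3933 to 4186 CPM, against 5742 to 5898 CPM. Their part in the changes was not tested.

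With siSCD_1 in 501mel, 14 genes rose and 15 fell (72.5%), against 43.0% of all genes, of which 20.9% rose and 22.0% fell. Receptors and MAP1LC3B rose, with SQSTM1 up 2.53-fold, and 6 of 10 hydrolases and 4 of 7 pump subunits fell, with ATP6V0D1 at 0.420 of its control level. In IGR37 the same siRNA raised 16 and lowered 4 genes, against calls in 36.1% of all genes, of which 16.7% rose and 19.4% fell. The rises there were led by GABARAPL1 (3.76-fold) and SQSTM1 (3.16-fold), and the 4 falls were TFEB, NEU1, ATP6V0D1 and ATG5. After quantile normalisation 7 rather than 15 genes were lower in 501mel. Melanocyte markers summed to 3039 to 3097 CPM with siSCD_1 in 501mel, against 4278 to 4465 CPM with siCTR_1, and their part in the changes was not tested.

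With siSCD_2 in 501mel, 13 genes rose and 7 fell, against calls in 37.9% of all genes, of which 18.3% rose and 19.5% fell. The rises were led by the glycogen-degrading enzyme GAA (3.06-fold) and the catalytic pump subunit ATP6V1A (2.18-fold), and the falls by ATG13, at 0.348 of its control level. These are changes against siCTR, and ATP6V1A is set beside its DMSO level below. With only the groups compared in the fit, 4 rather than 7 genes were lower. In IGR37 siSCD_2 raised 23 and lowered 5 genes (70.0%), against 45.9% of all genes, of which 23.2% rose and 22.7% fell. All 7 pump subunits had positive values there, and 5 passed the threshold. The 5 falls (TFEB, CTSB, CTSD, MAP1LC3B and GABARAP) became 3 with only the groups compared in the fit, with no variance trend, or without siCTR library 2, siCTR library 3 or the unnumbered siSCD_2 library. Melanocyte markers there summed to 4327 to 4452 CPM with siSCD_2, against 7101 to 7126 CPM with siCTR, and their part was not tested either.

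The 2 transcription factors moved apart. TFE3 (ENSG00000068323.16, chromosome X, 49028726 to 49043486, minus strand, GENCODE 29 on hg38), which drives lysosomal and autophagy genes when it enters the nucleus, had 6.80, 6.74 and 6.77 log2 CPM in IGR37 with SCDi, against 5.75, 5.75 and 5.51 with DMSO. Every inhibitor library lay above every control, by 1.10 ± 0.14 (limma adjusted p = 6.97e-07). With siSCD_1 its levels in IGR37 were 5.78, 6.10 and 5.99, against 5.38, 5.06 and 4.81 with siCTR_1 (0.88 ± 0.14, adjusted p = 0.000148). In IGR37 with siSCD_2 the values were 6.33, 6.24 and 5.56, against 5.46, 5.48 and 5.61 with siCTR. The last of these treated libraries lay inside the control range, although the gene passed the threshold (0.53 ± 0.14, adjusted p = 0.00375). In 501mel TFE3 rose by 0.42 ± 0.14 with siSCD_1 and by 0.37 ± 0.14 with siSCD_2, and its change was -0.09 ± 0.14 with SCDi (adjusted p = 0.913).

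TFEB (ENSG00000112561.17, chromosome 6, 41683978 to 41736259, minus strand), the best known activator of lysosomal genes, had few reads, so these are given. In IGR37 with siSCD_2 there were 2, 4 and 0 reads, against 31, 35 and 31 with siCTR, so the groups did not overlap. Scaled to library size, the summed reads were 0.0718 of the control (95% exact interval 0.0257 to 0.162, counting error only), and the fitted log2 change of -4.34 depends on the value given to the library with 0 reads. The TFEB change was -3.07 without that library and -2.17 with a pseudocount of 1. In IGR37 with siSCD_1 the reads were 9, 5 and 2, against 21, 46 and 39 with siCTR_1, a ratio of 0.245 (0.135 to 0.417). For 501mel with siSCD_1 they were 22, 27 and 10, against 97, 85 and 58 with siCTR_1, a ratio of 0.362 (0.268 to 0.484). All 3 falls passed the threshold (limma adjusted p = 2.75e-06, 0.00109 and 0.00715). The other 3 comparisons did not: the change was -0.59 ± 0.62 in IGR37 with SCDi, -0.49 ± 0.62 in 501mel with siSCD_2 and -0.09 ± 0.62 in 501mel with SCDi.

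**Figure D2:**
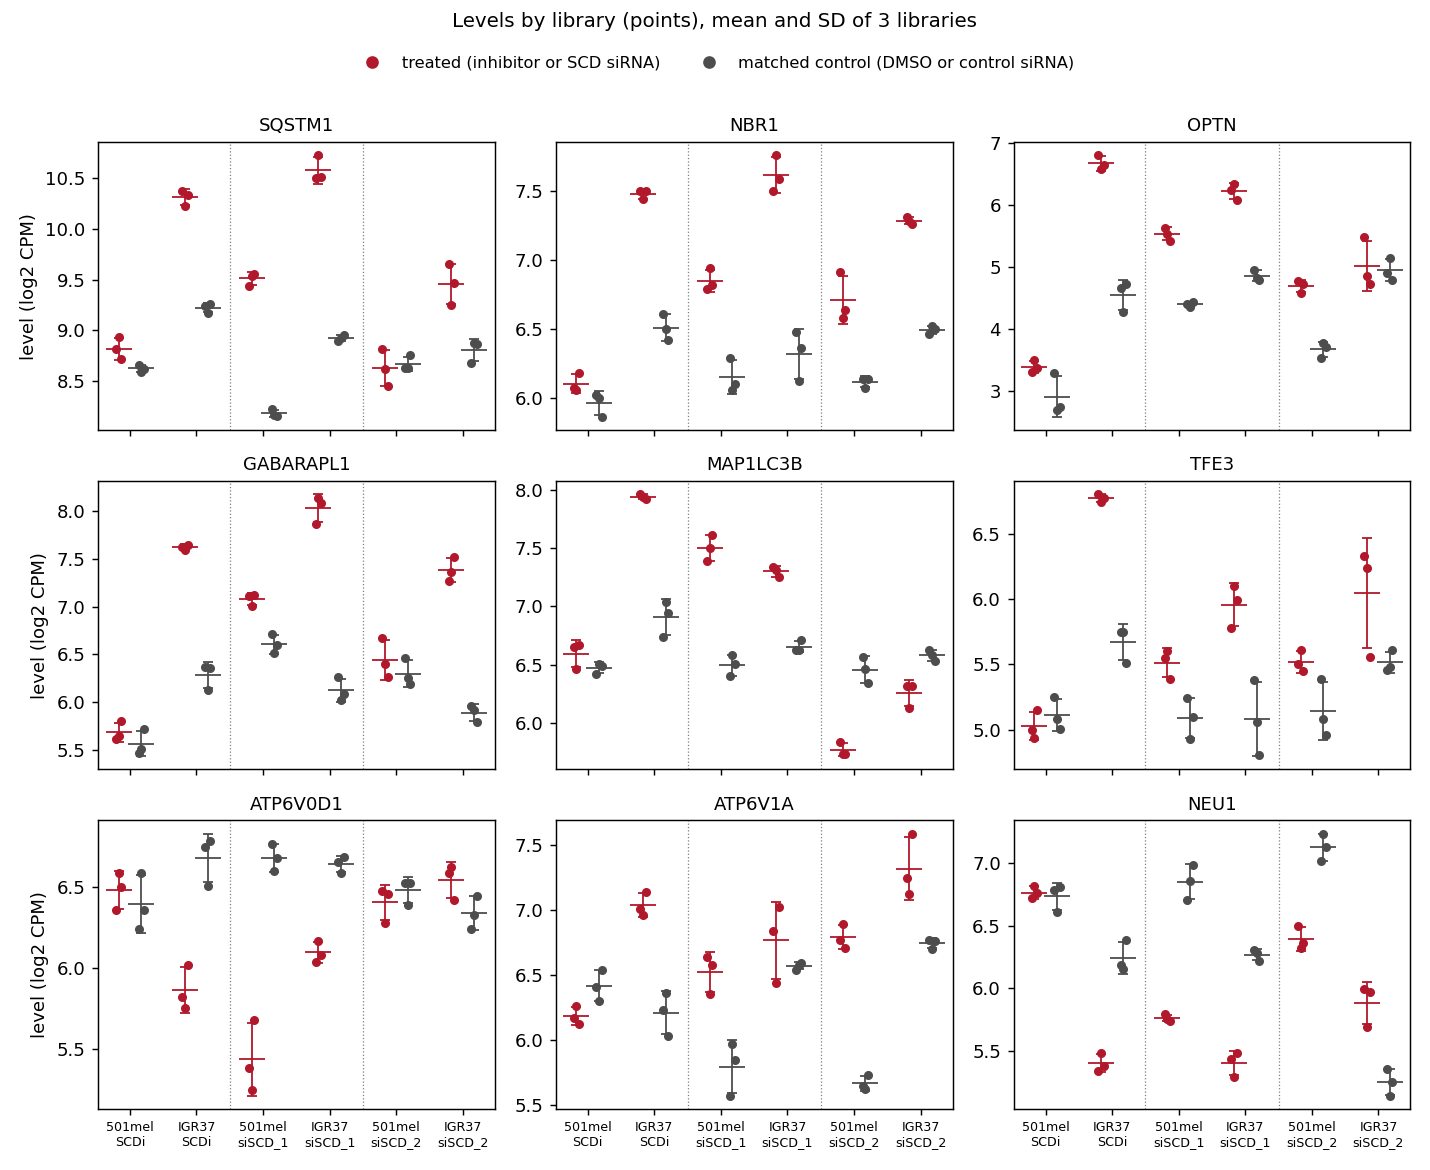
Levels (log2 CPM, each panel with its own axis range) of 9 genes in every library of the 6 comparisons, treated in red to the left of its control in grey, with the mean and SD of 3 libraries. The SQSTM1, NBR1 and OPTN points with SCDi in IGR37 stand clear above their controls, MAP1LC3B lies below its controls with siSCD_2 in both lines, and the dotted lines part the inhibitor, siSCD_1 and siSCD_2.

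Among the membrane proteins, LAMP2 rose wherever SCD siRNA was used and in IGR37 with the inhibitor. LAMP1 and LAMP2 are the heavily glycosylated proteins that line the lysosomal membrane. LAMP2 (ENSG00000005893.15) had 8.22, 8.27 and 8.07 log2 CPM in 501mel with siSCD_2, against 7.23, 7.28 and 7.31 with siCTR (0.91 ± 0.08, limma adjusted p = 1.47e-09). The size of that rise is against siCTR only, since the DMSO libraries of 501mel had 7.89, 8.03 and 8.01, nearer to siSCD_2. In IGR37 with SCDi the values were 9.01, 9.06 and 9.0, against 8.23, 8.37 and 8.16 with DMSO (0.77 ± 0.08, adjusted p = 1.74e-08). No treated library overlapped a control in either case. LAMP1 (ENSG00000185896.10), whose window holds 6 E-boxes, went down in the same inhibitor libraries, at 9.07, 8.97 and 9.12, against 9.77, 9.71 and 9.70 with DMSO (-0.67 ± 0.08, adjusted p = 1.34e-07). It was up in IGR37 with siSCD_2, at 10.16, 10.38 and 10.11, against 9.39, 9.53 and 9.52 with siCTR (0.73 ± 0.08, adjusted p = 3.73e-08), and it rose with siSCD_2 in 501mel (0.37 ± 0.08) and with siSCD_1 in IGR37 (0.30 ± 0.07). LAMP1 and LAMP2 therefore moved in opposite directions under the inhibitor and together under siSCD_2 in IGR37.

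CD63, a tetraspanin of late endosomes, lysosomes and melanosomes, rose in IGR37 with siSCD_2 to 13.42, 13.09 and 13.36 log2 CPM, against 12.37, 12.43 and 12.41 with siCTR (0.88 ± 0.11, limma adjusted p = 3.1e-07). It also rose with siSCD_2 in 501mel (0.58 ± 0.11) and with siSCD_1 in IGR37 (0.24 ± 0.07), and fell with siSCD_1 in 501mel (-0.20 ± 0.07). MCOLN1, which releases calcium from lysosomes, had changes between -0.27 and 0.35 with SE of 0.25 to 0.30, and no comparison called it.

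The hydrolases did not move as a block. Called lower in 4 comparisons and higher in 1 was NEU1 (ENSG00000204386.10, chromosome 6, 31857659 to 31862906, minus strand), the sialidase that trims sialic acids from glycoproteins. Its levels in IGR37 with SCDi were 5.34, 5.48 and 5.38 log2 CPM, against 6.19, 6.15 and 6.39 with DMSO (-0.84 ± 0.10, limma adjusted p = 1.05e-07). In 501mel with siSCD_1 they were 5.79, 5.75 and 5.74, against 6.71, 6.86 and 6.99 with siCTR_1 (-1.09 ± 0.09, adjusted p = 1.41e-07). In IGR37 with siSCD_1 they were 5.43, 5.29 and 5.48, against 6.31, 6.28 and 6.22 (-0.87 ± 0.09, adjusted p = 2.04e-06). Treated libraries lay below all controls in each of these, and also in 501mel with siSCD_2 (-0.74 ± 0.10, adjusted p = 1.32e-06). IGR37 with siSCD_2 went the other way, at 5.99, 5.69 and 5.97, against 5.35, 5.14 and 5.25 with siCTR (0.64 ± 0.10, adjusted p = 7.59e-06), again without overlap. Both of these groups lay below the 6.19, 6.15 and 6.39 of DMSO in IGR37, so this rise is a rise against siCTR only. CTSA, the carboxypeptidase that binds and protects NEU1, fell with SCDi in IGR37 (-0.71 ± 0.10) and with siSCD_1 in 501mel (-0.43 ± 0.09), and rose with siSCD_2 in IGR37 (0.84 ± 0.10).

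LIPA (ENSG00000107798.17), the acid lipase that frees fatty acids and cholesterol from lipids brought to the lysosome, was called higher in 4 comparisons and lower in 0. In IGR37 with siSCD_2 its levels were 5.97, 5.74 and 5.65 log2 CPM, against 4.68, 4.86 and 4.56 with siCTR (1.09 ± 0.14, limma adjusted p = 6.86e-07). In 501mel with siSCD_1 they were 5.07, 5.27 and 5.0, against 4.30, 3.99 and 4.65 with siCTR_1 (0.80 ± 0.15, adjusted p = 0.000379). The groups were apart in both, and LIPA also rose in IGR37 with SCDi (0.60 ± 0.14) and in 501mel with siSCD_2 (0.50 ± 0.14). GAA (ENSG00000171298.12, chromosome 17, 80101556 to 80119879, plus strand) changed in 1 comparison, with 4.43, 4.49 and 4.05 in 501mel with siSCD_2, against 2.13, 3.03 and 2.97 with siCTR (1.61 ± 0.22, adjusted p = 1.89e-06). Its other 5 changes, between 0.09 and 0.35, did not pass.

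The cathepsins, lysosomal proteases, differed among themselves. CTSL rose in 3 comparisons by 0.31 to 0.46 and passed in none as lower. CTSB fell with siSCD_2 in IGR37 to 7.87, 7.86 and 8.01 log2 CPM, against 8.70, 8.76 and 8.71 with siCTR (-0.81 ± 0.07, limma adjusted p = 8.43e-10). It also fell with SCDi in IGR37 (-0.20 ± 0.07, adjusted p = 0.0241) and with siSCD_2 in 501mel (-0.18 ± 0.07, adjusted p = 0.0465, groups overlapping), and rose with siSCD_1 in 501mel (0.30 ± 0.07) and IGR37 (0.23 ± 0.07). CTSD had a negative value in all 6 comparisons, from -0.42 to -0.06, and fell past the threshold in 2 of them. In 1 of these, IGR37 with siSCD_2, the groups overlapped, at 11.12, 11.63 and 10.64, against 11.41, 11.65 and 11.60 with siCTR. GLA, which removes terminal galactose from glycolipids, fell in 501mel with siSCD_1 (-0.77 ± 0.11) and siSCD_2 (-0.49 ± 0.14). GUSB fell with siSCD_1 in 501mel (-0.57 ± 0.10), and its reads may be shared with near-identical pseudogenes that have rows of their own. HEXA, a subunit of hexosaminidase, rose with siSCD_2 in 501mel (0.54 ± 0.09) and with siSCD_1 in IGR37 (0.18 ± 0.07), and fell with siSCD_1 in 501mel (-0.27 ± 0.07).

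Subunits of the one proton pump went in opposite directions in the same libraries. ATP6V0D1 (ENSG00000159720.11, chromosome 16, 67438014 to 67481237, minus strand) and ATP6V0E1 belong to the membrane sector, and ATP6V1A (ENSG00000114573.9) is the ATP-hydrolysing subunit. ATP6V0E1 was 7.01, 6.90 and 6.98 log2 CPM in IGR37 with SCDi, against 8.03, 7.93 and 8.18 with DMSO (-1.08 ± 0.10, limma adjusted p = 5.59e-09). ATP6V0D1 was 5.82, 5.75 and 6.02, against 6.75, 6.51 and 6.79 (-0.82 ± 0.10, adjusted p = 4.84e-07). ATP6V1A was 7.01, 6.96 and 7.14, against 6.23, 6.36 and 6.03 (0.83 ± 0.10, adjusted p = 4e-07). None of these groups overlapped, so both membrane sector genes were below and ATP6V1A above its controls. The V1 subunits ATP6V1C1 (-0.59 ± 0.10) and ATP6V1H (-0.37 ± 0.10) fell, so the split did not follow the sectors.

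In 501mel siSCD_1 gave the same split of these 3 genes. ATP6V0D1 had 5.38, 5.24 and 5.68 log2 CPM, against 6.77, 6.60 and 6.68 with siCTR_1 (-1.25 ± 0.10, limma adjusted p = 1.3e-07), ATP6V0E1 fell by 0.77 ± 0.11, and ATP6V1A rose by 0.73 ± 0.13. There ATP6V1H also rose (0.51 ± 0.09), and ATP6AP1 (-0.34 ± 0.07) and ATP6V1B2 (-0.22 ± 0.07) fell. In IGR37 with siSCD_1 ATP6V0D1 fell by 0.55 ± 0.10, ATP6V0E1 was 0.12 ± 0.11 (adjusted p = 0.429), and ATP6V1B2, ATP6V1H and the accessory subunit ATP6AP1 rose by 0.51, 0.34 and 0.23. With siSCD_2 the 7 pump subunits gave 2 calls in 501mel and 5 in IGR37, all higher. ATP6V1A was 6.77, 6.89 and 6.71 in 501mel, against 5.64, 5.62 and 5.73 with siCTR (1.12 ± 0.10, adjusted p = 3.87e-09), and ATP6AP1 rose there by 0.47 ± 0.10. The DMSO libraries of 501mel had 6.41, 6.30 and 6.54 for ATP6V1A, between siCTR and siSCD_2, so the size of its rise is against siCTR only. ATP6V1B2, ATP6AP1, ATP6V0E1, ATP6V1A and ATP6V1C1 rose in IGR37 by 0.79, 0.73, 0.60, 0.58 and 0.40. The siCTR means of ATP6V0E1 (7.48) and ATP6V1C1 (5.97) lay below those of DMSO in IGR37 (8.04 and 6.57). With siSCD_2 these genes had means of 8.08 and 6.37, near and below DMSO. For ATP6V1B2, ATP6AP1 and ATP6V1A the siSCD_2 means (9.79, 8.95 and 7.32) were also above DMSO (9.41, 8.37 and 6.21).

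Each autophagy receptor rose in at least 4 of the 6 comparisons and fell past the threshold in 0, a pattern whose share over all genes was not counted. SQSTM1 (ENSG00000161011.19, chromosome 5, 179806398 to 179838078, plus strand), which gathers ubiquitinated cargo, had 10.38, 10.23 and 10.34 log2 CPM in IGR37 with SCDi, against 9.24, 9.17 and 9.26 with DMSO (1.09 ± 0.09, limma adjusted p = 8.12e-10). With siSCD_1 it had 9.44, 9.54 and 9.56 in 501mel, against 8.22, 8.16 and 8.15 with siCTR_1, and 10.50, 10.73 and 10.51 in IGR37, against 8.89, 8.92 and 8.95 (1.66 ± 0.07, adjusted p = 1.38e-10). With siSCD_2 it had 9.65, 9.25 and 9.47 in IGR37, against 8.68, 8.87 and 8.86 with siCTR (0.65 ± 0.09, adjusted p = 3.67e-06). All 4 of these comparisons were without overlap. The SQSTM1 libraries with siCTR in IGR37 lay below the 9.24, 9.17 and 9.26 of DMSO, so the size of the siSCD_2 rise is against siCTR only. In 501mel siSCD_2 gave -0.04 ± 0.09 (adjusted p = 0.768), with 8.81, 8.62 and 8.45 for siSCD_2 spanning the 8.63, 8.63 and 8.75 of siCTR.

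NBR1 (ENSG00000188554.13), a receptor with a domain make-up like that of SQSTM1, rose in all comparisons but 501mel with SCDi. Its levels were 7.50, 7.44 and 7.50 log2 CPM in IGR37 with SCDi, against 6.61, 6.50 and 6.42 with DMSO (0.97 ± 0.08, limma adjusted p = 6.69e-10), and the rises elsewhere were 1.30 (IGR37, siSCD_1), 0.79 (IGR37, siSCD_2), 0.70 (501mel, siSCD_1) and 0.59 (501mel, siSCD_2). OPTN (ENSG00000123240.16, chromosome 10, 13099449 to 13138308, plus strand), a receptor for damaged mitochondria and bacteria, had 6.81, 6.58 and 6.65 in IGR37 with SCDi, against 4.66, 4.27 and 4.72 with DMSO. That difference of 2.13 ± 0.18 (adjusted p = 4.4e-10) was the largest rise of any of the 40 genes in the 6 comparisons. It also rose with siSCD_1 in 501mel (1.14 ± 0.11) and IGR37 (1.37 ± 0.11) and with siSCD_2 in 501mel (1.02 ± 0.18). In IGR37 with siSCD_2 its values of 5.48, 4.85 and 4.73 overlapped the 4.91, 5.15 and 4.80 of siCTR (0.06 ± 0.18, adjusted p = 0.798).

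Of the 4 ATG8 proteins, which coat the autophagic membrane, GABARAPL1 and MAP1LC3B moved most. GABARAPL1 (ENSG00000139112.10, chromosome 12, 10212458 to 10223130, plus strand) had 7.63, 7.59 and 7.65 log2 CPM in IGR37 with SCDi, against 6.37, 6.13 and 6.36 with DMSO (1.33 ± 0.11, limma adjusted p = 1.71e-10). With siSCD_1 in IGR37 it had 7.87, 8.14 and 8.09, against 6.26, 6.02 and 6.09 (1.91 ± 0.09, adjusted p = 4.01e-10), and with siSCD_2 it had 7.27, 7.36 and 7.52, against 5.96, 5.92 and 5.79 (1.49 ± 0.11, adjusted p = 2.45e-11). In IGR37 it thus rose without overlap under every agent. For 501mel the values were 0.47 ± 0.09 with siSCD_1 (adjusted p = 0.00055), 0.15 ± 0.11 with siSCD_2 (adjusted p = 0.303) and 0.12 ± 0.11 with SCDi (adjusted p = 0.781).

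MAP1LC3B (ENSG00000140941.12), the LC3 gene most used to mark autophagosomes, rose with SCDi in IGR37 and with siSCD_1 in both lines, and fell with siSCD_2 in both lines. In IGR37 with SCDi it had 7.96, 7.94 and 7.92 log2 CPM, against 6.74, 7.04 and 6.94 with DMSO (1.03 ± 0.09, limma adjusted p = 5.07e-10). In 501mel it had 7.39, 7.50 and 7.61 with siSCD_1, against 6.40, 6.58 and 6.51 with siCTR_1 (1.01 ± 0.08, adjusted p = 6.11e-08), but 5.84, 5.74 and 5.74 with siSCD_2, against 6.57, 6.46 and 6.34 with siCTR (-0.68 ± 0.09, adjusted p = 7.5e-07). In IGR37 the changes were 0.65 ± 0.08 with siSCD_1 and -0.32 ± 0.09 with siSCD_2 (adjusted p = 0.0035). All these groups were apart. The 2 siRNAs stand in tables normalised separately, so the difference between them was not tested, and MAP1LC3B2, a near-identical copy with its own row, may take some of the reads. GABARAPL2 rose with siSCD_2 in 501mel (0.52 ± 0.14) and IGR37 (0.77 ± 0.14). GABARAP fell with siSCD_1 in 501mel (-0.24 ± 0.07) and with siSCD_2 in IGR37 (-0.19 ± 0.08, groups overlapping).

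Among the genes of initiation, ATG13 (ENSG00000175224.16, chromosome 11, 46617527 to 46674818, plus strand), a subunit of the ULK1 kinase complex, fell with siSCD_2 in 501mel to 3.78, 3.44 and 2.90 log2 CPM, against 4.95, 5.03 and 4.70 with siCTR (-1.52 ± 0.19, limma adjusted p = 4.06e-07). It rose with siSCD_1 in IGR37 (0.62 ± 0.14) and with SCDi in IGR37 (0.48 ± 0.19, adjusted p = 0.0406). ULK1, the kinase itself, rose with siSCD_2 (0.74 ± 0.12) and siSCD_1 (0.29 ± 0.10) in IGR37. UVRAG, a partner of BECN1 in the lipid kinase complex, had 5.56, 5.10 and 5.83 in IGR37 with siSCD_2, against 4.54, 4.59 and 4.32 with siCTR (1.01 ± 0.15, adjusted p = 3.03e-06). The groups were apart, and UVRAG also rose with both SCD siRNAs in 501mel, by 0.60 ± 0.16 and 0.48 ± 0.15. WIPI1, which reads the phosphoinositide mark on the growing membrane, had 8.48, 8.49 and 8.36 in IGR37 with SCDi, against 7.39, 7.53 and 7.50 with DMSO (0.97 ± 0.09, adjusted p = 1.71e-09), and fell with siSCD_1 (-0.25 ± 0.09) and siSCD_2 (-0.23 ± 0.09) in 501mel.

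BECN1, the regulatory subunit of the lipid kinase complex, fell with SCDi in IGR37 (-0.37 ± 0.07) and rose with siSCD_2 there (0.47 ± 0.07). The controls of these comparisons differed, with BECN1 means of 7.36 log2 CPM for DMSO and 6.87 for siCTR, and siSCD_2 at 7.34 was near DMSO. WIPI2, which recruits the conjugation machinery, fell with siSCD_1 in 501mel (-0.30 ± 0.09) and rose with siSCD_2 in IGR37 (0.24 ± 0.08). Of the conjugation genes, ATG3, the conjugating enzyme, rose with siSCD_1 in 501mel (0.61 ± 0.12) and with siSCD_2 in IGR37 (0.61 ± 0.18, groups overlapping). ATG12, the ubiquitin-like protein joined to ATG5, rose with siSCD_2 (0.58 ± 0.10) and SCDi (0.41 ± 0.10) in IGR37. ATG5 fell with siSCD_2 in 501mel (-0.60 ± 0.19, limma adjusted p = 0.0163) and siSCD_1 in IGR37 (-0.52 ± 0.18, adjusted p = 0.037). The ATG5 calls were lost without siSCD_2 library 1 in 501mel (adjusted p = 0.0769) and, in IGR37, without siCTR_1 library 1 or 3 or siSCD_1 library 1 or 3 (adjusted p = 0.0555 to 0.135), or with only the groups compared in the fit (adjusted p = 0.0546).

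Set side by side, the 3 classes differed in direction by comparison. Over all genes, 20.9% rose and 23.1% fell with SCDi in IGR37. With siSCD_1 the shares were 20.9% and 22.0% in 501mel and 16.7% and 19.4% in IGR37. With siSCD_2 they were 18.3% and 19.5% in 501mel and 23.2% and 22.7% in IGR37. Calls in 2 of 10 hydrolases lie near these shares. In IGR37 with SCDi, 8 of 17 autophagy genes rose and 1 fell (median 0.30), 1 of 7 pump subunits rose and 4 fell (median -0.37), and 2 of 10 hydrolases rose and 3 fell (median -0.02), beside a median of 0.00 over all genes. In 501mel with siSCD_1, 7 autophagy genes rose and 3 fell (median 0.04), against 2 and 4 for the pump (median -0.22) and 3 and 6 for the hydrolases (median -0.29). The hydrolase median under SCDi in IGR37 was 0.07 with quantile normalisation, and the autophagy median with siSCD_1 in 501mel was -0.05 after centring on the median and -0.02 without siSCD_1 library 1. In IGR37 with siSCD_1, 7 autophagy genes rose and 1 fell (median 0.21), 3 pump subunits rose and 1 fell (0.20), and 2 hydrolases rose and 1 fell (0.17). For 501mel with siSCD_2 the counts were 4 up and 4 down (0.00), 2 up and 0 down (-0.08), and 3 up and 3 down (-0.14). With siSCD_2 in IGR37 all 3 classes had positive medians, at 0.47 with 10 up and 2 down for autophagy, 0.58 with 5 up and 0 down for the pump, and 0.24 with 4 up and 2 down for the hydrolases.

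**Figure D3:**
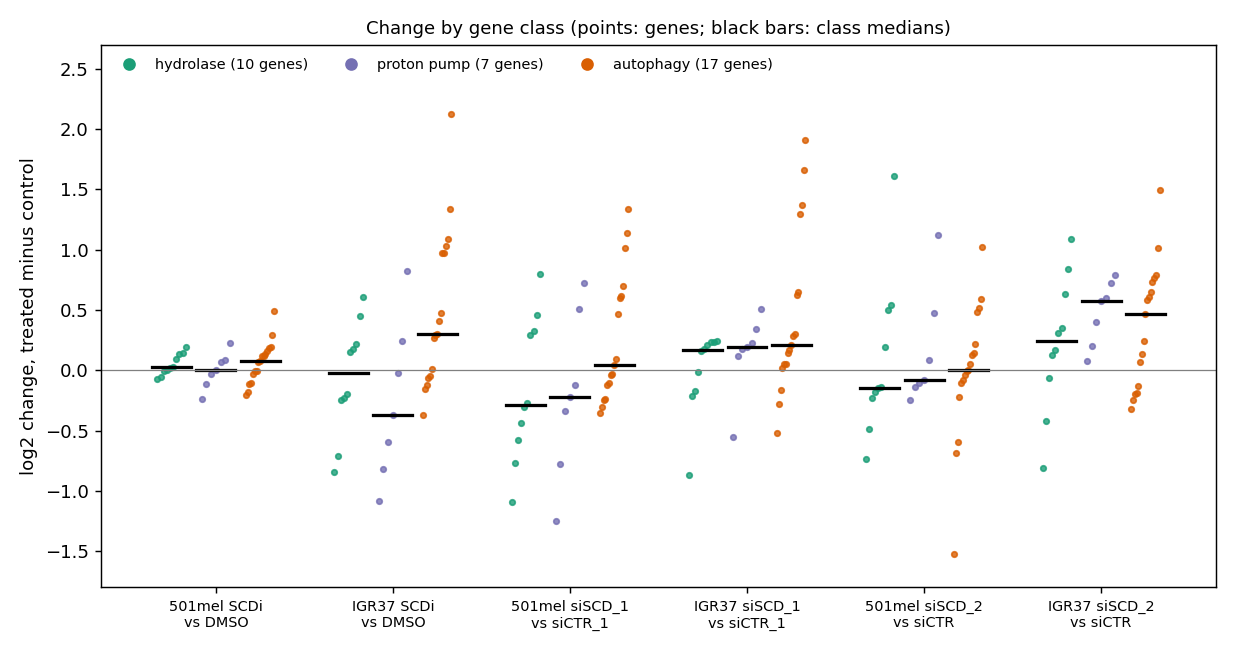
Log2 change, treated minus control, of the 10 hydrolases, 7 pump subunits and 17 autophagy genes (points) in the 6 comparisons, with black bars at the class medians. With SCDi in IGR37 the autophagy median of 0.30 lies above the pump median of -0.37, and with siSCD_2 in IGR37 all 3 medians are above 0.

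Whether the lines responded differently was tested as the effect in IGR37 minus the effect in 501mel. For the inhibitor 12 of the 40 genes had a higher and 8 a lower effect in IGR37, against calls in 27.6% of all genes (12.3% higher and 15.3% lower). For siSCD_1 the counts were 15 and 2 (42.5%), against 20.3% (10.0% and 10.3%), and for siSCD_2 they were 17 and 7, against 21.1% (11.6% and 9.47%). GABARAPL1 had the larger effect in IGR37 with all 3 agents, by 1.21 ± 0.15 with SCDi, 1.44 ± 0.13 with siSCD_1 and 1.35 ± 0.15 with siSCD_2 (limma adjusted p = 1.16e-06, 1.02e-05 and 4.61e-07). Its siSCD_2 difference is against siCTR, with means of 6.30 log2 CPM in 501mel and 5.89 in IGR37, beside 5.57 and 6.29 with DMSO. With siSCD_2 the GABARAPL1 means were 6.44 and 7.38, above DMSO in both lines. The part of the siCTR levels in this difference was not tested. SQSTM1 also differed between the lines each time, by 0.90 ± 0.13, 0.32 ± 0.10 and 0.69 ± 0.13. Its means with siCTR were 8.67 log2 CPM in 501mel and 8.81 in IGR37, against 8.62 and 9.22 with DMSO. With siSCD_2 the SQSTM1 means were 8.63 and 9.46, and the part of the siCTR levels was not tested here either. Under SCDi the effects on OPTN (1.64 ± 0.25), TFE3 (1.19 ± 0.20) and ATP6V1A (1.06 ± 0.15) were higher in IGR37, and those on ATP6V0E1 (-1.05 ± 0.15), ATP6V0D1 (-0.91 ± 0.15), NEU1 (-0.87 ± 0.14) and CTSA (-0.85 ± 0.14) were lower.

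Both SCD siRNAs gave effects of either sign against 501mel. With siSCD_1, ATP6V0E1 (0.89 ± 0.15), GLA (0.75 ± 0.16) and ATP6V1B2 (0.73 ± 0.10) had higher effects in IGR37, and ATG3 a lower one (-0.89 ± 0.17, limma adjusted p = 0.00252). MAP1LC3B differed by -0.36 ± 0.11 with siSCD_1 (adjusted p = 0.0294), a call lost after centring on the median (-0.25, adjusted p = 0.116), where the median of all genes moved by 0.11. It was also lost with no variance trend (adjusted p = 0.0711) and without siCTR_1 library 1 or 3 or siSCD_1 library 2 or 3 in 501mel, or siCTR_1 library 1, 2 or 3 in IGR37 (adjusted p = 0.0506 to 0.0765). With siSCD_2, NEU1 differed by 1.37 ± 0.14 (adjusted p = 8.65e-08), having fallen in 501mel and risen in IGR37, each against siCTR. The NEU1 means with siCTR were 5.25 log2 CPM in IGR37 and 7.13 in 501mel, against 6.24 and 6.74 with DMSO. With siSCD_2 the means were 5.88 and 6.39, below DMSO in both lines. The part of the siCTR levels in the NEU1 difference was not tested. The ATG13 effect differed by 1.27 ± 0.26 (adjusted p = 0.00106), as its fall against siCTR passed in 501mel and not in IGR37 (-0.25 ± 0.19). The ATG13 means with siCTR were 4.90 log2 CPM in 501mel and 4.22 in IGR37, against 4.58 and 4.71 with DMSO. With siSCD_2 they were 3.37 and 3.97, below DMSO in both lines, and the part of the siCTR levels was again not tested. Lower in IGR37 were the effects on GAA (-1.26 ± 0.31), OPTN (-0.95 ± 0.25) and LAMP2 (-0.65 ± 0.11). The LAMP2 means with siCTR were 7.27 log2 CPM in 501mel and 9.23 in IGR37, against 7.98 and 8.25 with DMSO. The siSCD_2 libraries had LAMP2 at 8.07 to 8.27 in 501mel and 9.39 to 9.7 in IGR37, further above DMSO in IGR37. The lower LAMP2 effect in IGR37 is therefore against siCTR only, and the part of the siCTR levels was not tested. MITF fell with siSCD_2 in both lines, by 1.13 ± 0.08 in IGR37 and by 0.35 ± 0.08 in 501mel, and with siSCD_1 by 0.33 ± 0.06 in IGR37 and 1.08 ± 0.06 in 501mel, and its part in these differences was not tested.

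**Figure D4:**
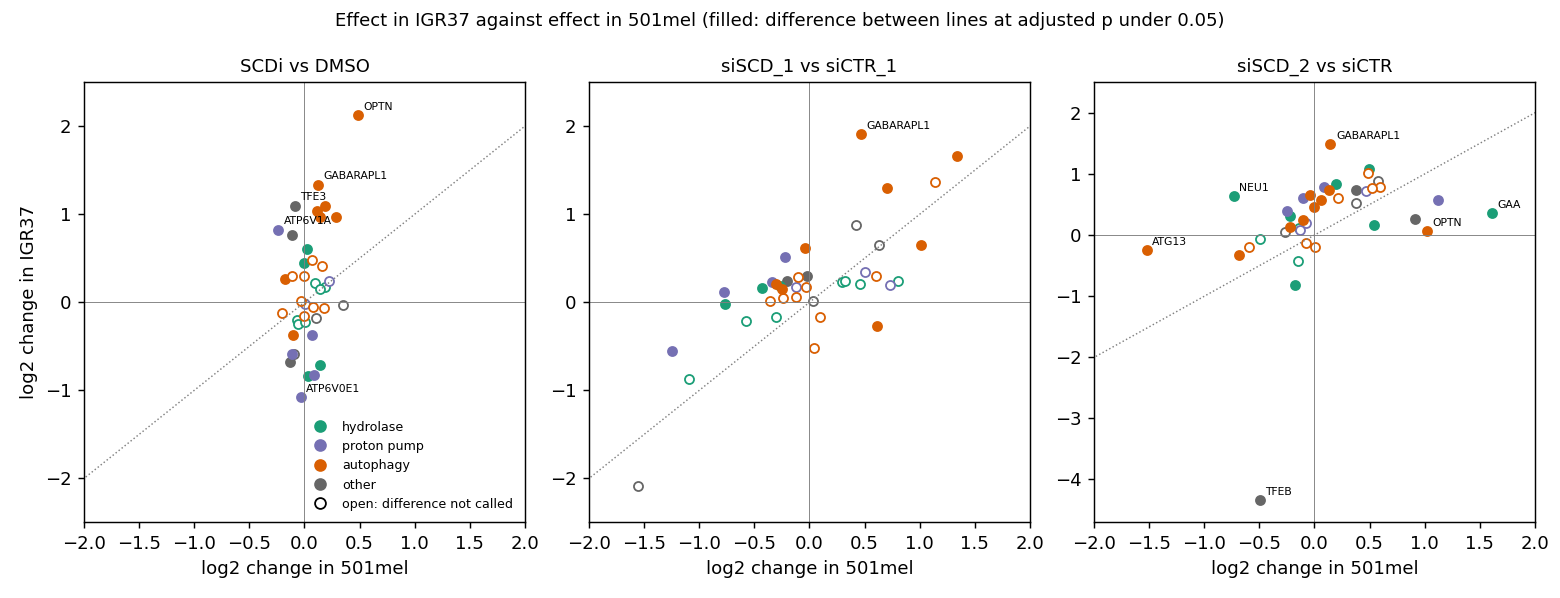
Log2 change in IGR37 (vertical) against that in 501mel (horizontal) for the 40 genes and each agent, filled where the difference between lines had a limma adjusted p under 0.05, with a dotted line of equal effects. GABARAPL1 lies above the line with all 3 agents, NEU1 is at 0.64 and -0.74 with siSCD_2, and under SCDi the 501mel values span only -0.24 to 0.49.

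The lines also differed before any treatment of SCD. Under DMSO 26 of the 40 genes were higher and 5 lower in IGR37 than in 501mel (77.5%), against 60.8% of all genes, of which 31.1% were higher and 29.7% lower. The median over the 40 was 0.42, beside 0.02 over all genes. CTSD (ENSG00000117984.13), the aspartic protease of the lysosome, had 11.84, 11.66 and 11.78 log2 CPM in IGR37, against 8.62, 8.98 and 8.83 in 501mel, a 7.74-fold difference (2.95 ± 0.15, limma adjusted p = 1.19e-14). GAA was 5.36, 4.94 and 5.13, against 2.20, 2.49 and 2.82 (2.64 ± 0.22, adjusted p = 1.49e-10). OPTN was 1.64 ± 0.18, GLA 1.54 ± 0.14, WIPI1 1.44 ± 0.09 and ATG7 1.24 ± 0.26 higher in IGR37. By class 7 hydrolases were higher and 2 lower, 6 pump subunits higher and 0 lower, and 10 autophagy genes higher and 2 lower.

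The 5 genes lower in IGR37 were UVRAG, NEU1, CTSB, GABARAPL2 and CD63. UVRAG had 4.40, 4.39 and 4.58 log2 CPM in IGR37, against 5.91, 5.71 and 5.93 in 501mel (-1.39 ± 0.15, limma adjusted p = 9.35e-09). NEU1 differed by -0.50 ± 0.10 and CTSB by -0.32 ± 0.07. The calls of GABARAPL2 (-0.38 ± 0.14, adjusted p = 0.0211) and CD63 (-0.32 ± 0.11, adjusted p = 0.0138) were both lost without IGR37 DMSO library 2 (adjusted p = 0.0573 and 0.0798) or 501mel DMSO library 3 (adjusted p = 0.0947 and 0.0521). That of GABARAPL2 was also lost without 501mel DMSO library 1 (adjusted p = 0.0558), and CD63 was -0.13 with quantile normalisation (adjusted p = 0.204). MITF did not pass between the lines under DMSO (-0.10 ± 0.08, adjusted p = 0.276). These DMSO libraries are also the controls of the inhibitor, so the differences of effect under SCDi are not independent of the levels given here.

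**Figure D5:**
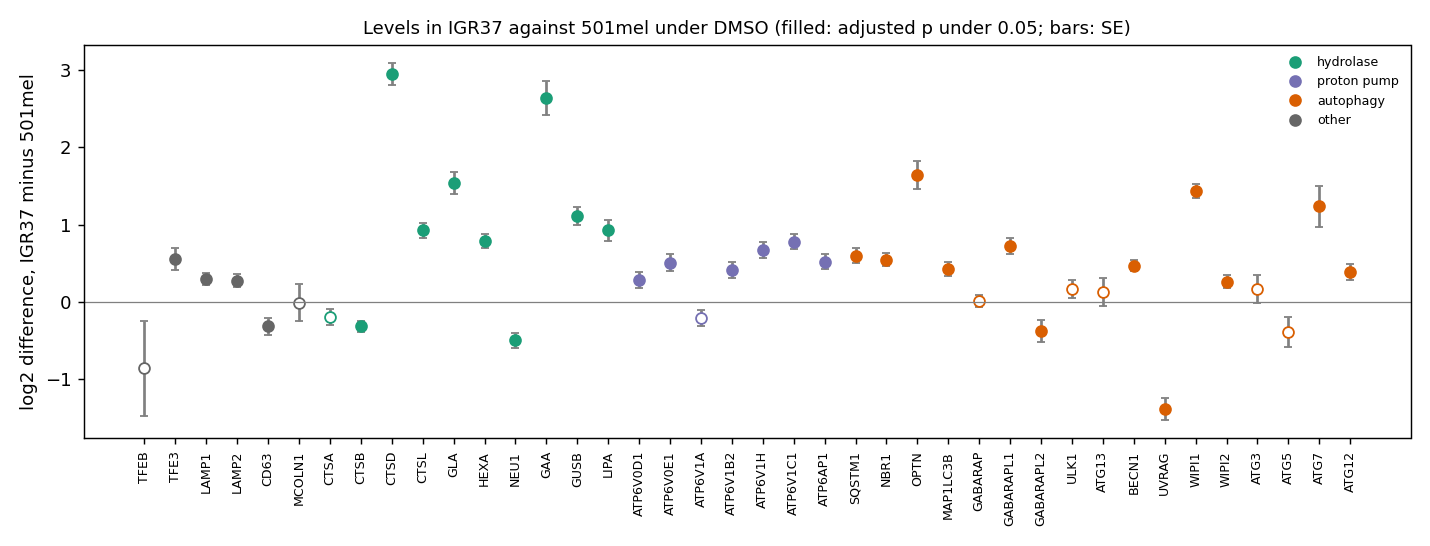
Log2 difference in level under DMSO, IGR37 minus 501mel, of the 40 genes, with SE bars and filled points at a limma adjusted p under 0.05 (n = 3 libraries per line). CTSD at 2.95 and GAA at 2.64 stand highest and UVRAG at -1.39 lowest.

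A wider list of 122 further lysosome and autophagy genes, of which 114 were measured, gave a setting for these counts. With SCDi in IGR37, 21 rose and 42 fell (55.3%, against 44.1% of all genes), with 5 up and 17 down of 34 further hydrolases and helpers, 1 up and 10 down of 17 membrane and sorting genes, 2 up and 6 down of 16 further pump subunits, and 13 up and 9 down of 47 further autophagy genes. Among them CALCOCO2, another cargo receptor, rose by 1.27 ± 0.12, the macrosialin gene CD68 rose by 2.16 ± 0.19 (and fell by 1.72 ± 0.19 with siSCD_2 in the same line), and the pump subunit ATP6V0C fell by 1.14 ± 0.12 (limma adjusted p = 5.44e-09, 1.24e-09 and 1.52e-08). With siSCD_1, 20 rose and 31 fell in 501mel (44.7%, against 43.0% of all genes), and 30 rose and 23 fell in IGR37 (46.5%, against 36.1%). ATP6V0C fell there too, by 1.20 ± 0.09 in 501mel and by 0.73 ± 0.09 in IGR37. With siSCD_2, 34 rose and 23 fell in 501mel, against calls in 37.9% of all genes, and 41 rose and 21 fell in IGR37 (54.4%, against 45.9%), where SMPD1, the acid sphingomyelinase, rose by 1.48 ± 0.12. PPT1 and GM2A, a thioesterase and a glycolipid carrier, fell with siSCD_2 in IGR37 by 1.68 ± 0.10 and 1.91 ± 0.12 and in 501mel by 2.16 ± 0.10 and 1.74 ± 0.12. Under DMSO 55 were higher and 23 lower in IGR37 than in 501mel (68.4%, against 60.8%).

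By class the wider list did not always follow the 40 genes. Shares of all genes that rose and fell, to set beside these counts, were 23.2% and 22.7% with siSCD_2 in IGR37 and 18.3% and 19.5% in 501mel. With siSCD_1 they were 20.9% and 22.0% in 501mel and 16.7% and 19.4% in IGR37. With siSCD_2 in IGR37 the 16 further pump genes had 6 rises and 4 falls (median 0.03), the 34 hydrolases and helpers 10 and 6 (0.13), and the 47 autophagy genes 17 and 6 (0.10). In 501mel with siSCD_2 the counts were 4 and 4 for the pump (median -0.003), 13 and 7 for the hydrolases (0.27), and 12 and 6 for autophagy (0.05). With siSCD_1 in 501mel, 9 further autophagy genes rose and 10 fell (-0.09), 2 pump genes rose and 8 fell (-0.37), and 6 hydrolases rose and 9 fell (-0.12). In IGR37 the same siRNA gave 19 rises and 6 falls for autophagy (0.24), 2 and 5 for the pump (-0.08), and 8 and 8 for the hydrolases (-0.03).

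Genes with and without the E-box of the promoter windows shown above were set side by side. With SCDi in IGR37, 0 of 9 genes with an E-box rose and 4 fell (LAMP1, CTSA, NEU1 and ATP6V0D1), with a median of -0.25. Of the 22 genes with a window and no E-box, 11 rose and 1 fell (BECN1), with a median of 0.35. Genes without a window are in neither group, among them ATP6V0E1, ATP6V1C1, ATP6V1H and CTSB, which fell there, and LAMP2 and ATP6V1A, which rose. Over all genes of the table with a window, 21.5% of those with an E-box rose and 28.7% fell, and 21.2% and 23.6% of those without. In IGR37 with siSCD_2 the order was not the same: 5 of 9 genes with an E-box rose and 1 fell (median 0.61), and 12 of 22 without it rose and 3 fell (median 0.27). Over all genes 24.1% with an E-box rose and 22.8% fell there, and 24.2% and 22.8% without. With siSCD_1, 1 rose and 5 fell of the 9 in 501mel (median -0.20) and 2 rose and 2 fell in IGR37 (median 0.02), while of the 22, 8 rose and 7 fell in 501mel (median -0.04) and 9 rose and 2 fell in IGR37 (median 0.21). The shares over all genes were 20.4% up and 25.6% down with an E-box and 21.6% and 22.6% without in 501mel, and 17% and 22.7% with and 17.8% and 19.8% without in IGR37. With siSCD_2 in 501mel 3 of the 9 rose and 1 fell, and 6 of the 22 rose and 5 fell, against 21.5% up and 20.5% down with an E-box and 19.1% and 20.3% without over all genes. The genes with an E-box are mostly hydrolases and membrane proteins, so motif and role cannot be told apart in this set.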

How the data were processed

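RNA of 501mel and IGR37 cells was sequenced as QuantSeq Forward libraries of 3′ transcript ends, per the labels' protocols. Per the submitters' processing notes, STAR, edgeR and build hg38 were used, without versions. Of the log2 tables that the authors deposited, the first had 24 and the second 12 libraries, each scaled on its own. The log2 values behaved as log2 CPM with a prior count of 0.25, since they gave whole reads within a distance of 0.000417 and 0.000297 reads, with scaling factors of 0.920 to 1.06 and 0.916 to 1.07. Counting was not stated to use strand. Spike-ins (66 and 60) and 1 tagged sequence stayed out of the gene tests. The 40 genes and every list were chosen with earlier results of these data known.

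All genes of a table were fitted together with limma 3.58.1 in R 4.3.3 (empirical Bayes with a variance trend), in which every group had its own mean and 1 estimate of the spread came from the whole table. Tests were two-sided, with Benjamini-Hochberg adjustment over all 13364 or 13066 genes. Requiring log2 values over 0 in at least 3 libraries took out 0 genes. Genes described in full were, per comparison, up to 4 in each direction with an adjusted p under 0.05 and treated libraries all on 1 side of the controls. Other genes were added after their values were seen, to describe every role. The wider list and the promoter motifs were counted from the same fits. Titles number the IGR37 siSCD_2 libraries 1, 2 and 13 but the columns 1, 2 and 3, so column 3 entered its group unnumbered. Replicate numbers were not used as a block: 0 of 17 pairs with the same number had a residual correlation over 0.1. Tried instead were fits of only the groups compared, without a variance trend or with the replicate block, a stricter filter (log2 over 2 in 3 libraries) and none, quantile normalisation or centring on the median, a pseudocount of 1, limma voom on recovered reads, and every library left out in turn. Scripts were tested on simulated data. Promoter windows came from RefSeq (GRCh38.p14), and gene identifiers and hg38 coordinates from GENCODE 29, matched by symbol for all 40 genes.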

Additional observations from a re-analysis of the deposited data

Results flagged for a closer look

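The following effects differed between the lines by the test of the difference itself (IGR37 minus 501mel, log2, limma adjusted p under 0.05). They are given as values, with no explanation.

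Under SCDi the difference was 1.64 for OPTN, 1.21 for GABARAPL1, 1.19 for TFE3 and 1.06 for ATP6V1A, which had the higher effect in IGR37. It was -1.05 for ATP6V0E1, -0.91 for ATP6V0D1, -0.87 for NEU1 and -0.85 for CTSA, which had the lower effect there.

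For siSCD_1 the difference was 1.44 for GABARAPL1, 0.89 for ATP6V0E1, 0.75 for GLA, 0.73 for ATP6V1B2, -0.89 for ATG3 and -0.36 for MAP1LC3B. The MAP1LC3B call depended on the setting, as given with the comparison of lines.

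For siSCD_2 it was 1.37 for NEU1, 1.35 for GABARAPL1, 1.27 for ATG13, 0.71 for ATP6V1B2, -3.85 for TFEB, -1.26 for GAA, -0.95 for OPTN and -0.65 for LAMP2. These siSCD_2 effects are against siCTR. For NEU1, GABARAPL1, ATG13 and LAMP2 the siCTR means lay apart from those of DMSO, as given with the comparison of lines. The TFEB value rests on 2, 4 and 0 reads in IGR37 with siSCD_2 and was -2.58 without the library with 0 reads and -1.8 with a pseudocount of 1.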

How the results depend on the processing

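The counts of genes called higher stayed within 1.5 times their reported value under all 9 alternatives and without any 1 library, and no count or named change reversed. Counts of genes called lower moved further. For siSCD_1 in 501mel the 15 became 7 with quantile normalisation. With only the groups compared in the fit, the 7 of siSCD_2 in 501mel became 4 and the 5 of siSCD_2 in IGR37 became 3, which was also 3 with no variance trend and 3 to 5 without 1 library. For the siSCD_1 difference between lines the 2 became 1 with no variance trend, 5 with quantile normalisation, 1 with centring on the median, 4 with limma voom on recovered reads, and 1 to 3 without 1 library, the 1 being without library 1, 2 or 3 of siCTR_1 in IGR37, or siCTR_1 library 1 or siSCD_1 library 3 in 501mel. For IGR37 against 501mel under DMSO the 5 became 8 with centring on the median and 3 to 6 without 1 library, the 3 being without 501mel DMSO library 3. The cause was not tested.

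With the replicate block, which the data did not back as a pairing, 13 rose and 9 fell with SCDi in IGR37 and 15 rose and 3 fell with siSCD_1 in IGR37, where the ATG5 call was lost (adjusted p = 0.0541). It lost no other of the 69 named changes. Centring on the median moved the median of all genes by 0.11 in the siSCD_1 difference and by less than 0.1 elsewhere. Depth limits TFEB above all, with 6 reads over 3 libraries in IGR37 with siSCD_2.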
